A study of Danio rerio with 24 samples.

Results

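The proteasome genes of the zebrafish were described across 24 RNA sequencing libraries of whole embryos. A gene was counted as a member when its symbol began with psma to psmg followed by a digit and when its level reached 1 TPM or more in 3 or more of the 24 libraries. TPM is a length-scaled share of a library's transcripts, so levels can be set side by side between genes of a library. Between libraries, a gene's share also depends on the levels of the other genes in each. Of 25432 genes in the tables, 57 had such a symbol and 53 reached the level; 21099 genes of any name reached it. The 4 that did not were psmb8a and psmb13a, each at 1 TPM or more in 1 library, and psmb11a and psmb11b, at that level in none. Just inside the limit were psmb12, with 6 such libraries, and psmb9a, with 8; psma6l had 23 and the other 50 members had all 24. The symbol also picked up 2 genes that do not encode proteasome parts: psmc3ip, a partner of meiotic recombinases, and psme3ip1, a partner of the psme3 activator. Summed levels below leave these 2 out and cover 51 genes.

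The embryos came from 4 lines and were collected 4 days after fertilization. All 8 groups carried the CRISPR-Q components, in which the transcriptional driver QFvpr is placed behind the heat-inducible hsp70l promoter, and all were heated for 1 h at 2 and again at 3 days, so the controls shared the driver and the heat. In each line, 3 libraries were made from triple transgenic embryos (3Tg), which also carried guide RNA, and 3 from double transgenic embryos of the same line (2Tg), which carried none. In the smn1 line the guide was directed at smn1, and in the tardbp line an array of guides at tardbp and tardbpl, for RNA knockdown (CRISPR-QKD); in the lin28a and sox9b lines the guides were for transcriptional activation of those genes (CRISPR-Qa). The sources used here do not give the number of embryos per library or say whether replicates came from separate clutches, so p-values measure the spread between these libraries only.

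The proteasome is the large protease that degrades proteins tagged with ubiquitin. Its core is a barrel of alpha rings, which gate the entrance, around beta rings that hold the protease sites; the regulatory cap on its ends has a base, whose ATPases unfold the substrate, and a lid, which removes the ubiquitin. Interferon induces replacement beta subunits that change which peptides are cut for display on MHC class I. Other caps (the psme activators) can take the place of the regulatory one. The subunit genes of mammals are known to be induced together by the transcription factor Nrf1 when proteasome activity falls short.

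Each targeted gene stood on its labelled side of the 2Tg libraries without overlap: smn1 at 13.03 to 17.3 TPM in 3Tg and 24.6 to 27.9 in 2Tg, tardbp at 48.3 to 80.1 and 109 to 146, tardbpl at 76.7 to 121 and 180.2 to 216, lin28a at 2.69 to 8.41 and 0.310 to 1.23, and sox9b at 31.5 to 39.7 and 17.1 to 18.4. The listed TPM summed to 983631 to 990345 in 23 libraries and to 778190 in tardbp 3Tg replicate 3. There, 3 abundant genes alone took 34.3% of the fixed total to which TPM are scaled, and all listed genes together 77.8%. That library had the lowest level of the series for 46 of 53 members, and the main results in the tardbp line are given with and without it. In the tables, 10 libraries have numbers with 6 decimals and 14 have numbers with 6 significant digits; both formats occur in the smn1 and tardbp lines. Marker genes of skeletal muscle, skin, nervous system, eye, red cells, liver and intestine were all present in every library, apart from hbbe3, an embryonic globin, listed at 0 in some. Depth is unknown, since no counts were used. In whole embryos, fewer cells of a type and less RNA per cell cannot be told apart.

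The highest levels were those of core genes. By mean over the 24 libraries, psmb7 led with 223 TPM, followed by psmb1 (217), psma8 (201), psmb4 (183), psmb2 (171) and psma3 (153). These are beta and alpha subunits of the core barrel, and psmb7 carries its trypsin-like site. In mammals psma8 is known as a form used in sperm formation, a role that its level here does not show for the zebrafish gene. No psma7 was among the 57 symbols. The ATPases of the cap ranged from 66.0 (psmc1b) to 137 TPM (psmc5) and the lid genes from 31.5 (psmd11a) to 109 TPM (psmd6). Some core genes stood below all of these: psma1 (29.6), psma2 (27.4) and psma6l (5.48). The assembly chaperones, which help build the particle and leave it, stood between 15.0 (psmd10) and 27.9 TPM (psmg3), below every ATPase gene. Among activators, psme3 had 35.6 TPM, psme4b 18.1 and psme4a 8.35. Some members have near copies in the genome (psmc1a with psmc1b, psmd4a with psmd4b, psmd11a with psmd11b, psme4a with psme4b, and psma6a with psma6b and psma6l), and how reads were divided between such copies is uncertain.

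The summed TPM of the 51 proteasome genes separated the 3Tg from the 2Tg libraries in the knockdown lines. The smn1 line had sums of 5045, 4612 and 3963 TPM in 2Tg and 3666, 3122 and 2826 TPM in 3Tg, so that the mean of 3Tg was 70.6% of that of 2Tg. In the tardbp line they were 5272, 3889 and 3969.7 TPM in 2Tg and 2994, 2874 and 1768 TPM in 3Tg, or 58.2%, and 67.0% without 3Tg replicate 3. In both lines every 3Tg library lay below every 2Tg library. In the lin28a line the sums were 2849.7, 3341 and 3551 TPM in 2Tg and 3096, 3352 and 3857 TPM in 3Tg (105.8%), and in the sox9b line 3695, 4772 and 4645 in 2Tg and 3960.1, 4341 and 4537 in 3Tg (97.9%), with overlap in both. With 3 libraries against 3, the smallest two-sided p an exact permutation test can give is 0.1, so that test could not reach 0.05 for any single sum. Counted as a share of the TPM left after the 3 abundant genes are taken out, the tardbp line overlapped: 0.535%, 0.394% and 0.405% in 2Tg and 0.304%, 0.291% and 0.406% in 3Tg.

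**Figure D1:**
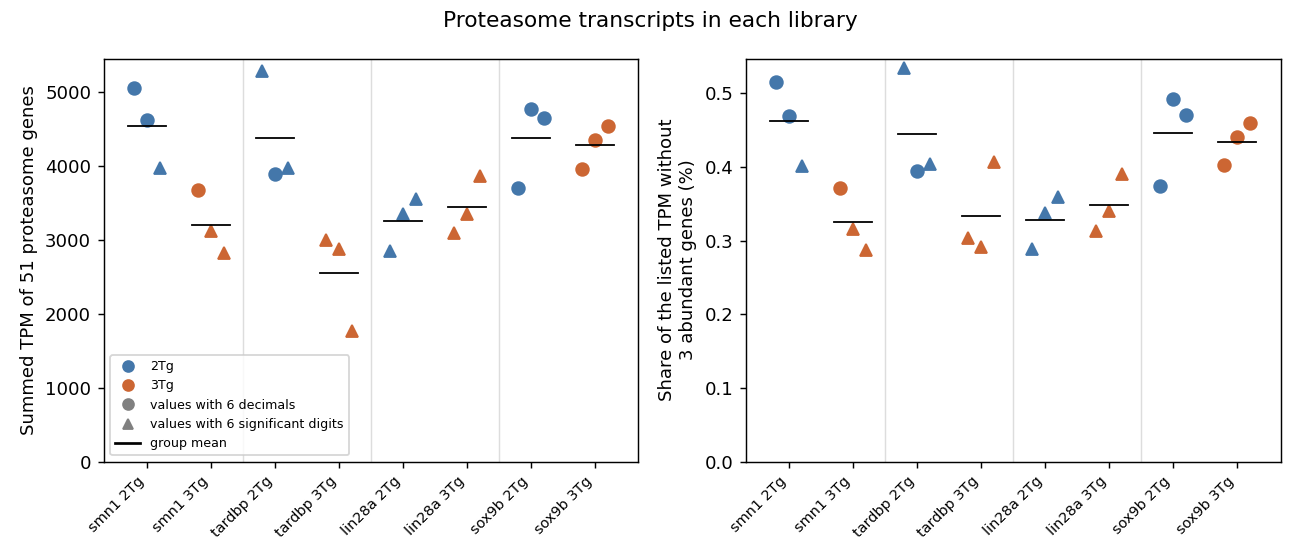
Summed TPM of the 51 proteasome genes (left) and their percent of the listed TPM without 3 abundant genes (right) in each of the 24 libraries, by line and group; points are libraries, their shape the number format, and bars group means. In the sums, all 3Tg points lie below all 2Tg points in the smn1 and tardbp lines, and the groups overlap in the lin28a and sox9b lines.

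In the smn1 line, proteasome genes of every structural role stood lower in the 3Tg embryos, and no single gene passed the test. Of 53 members, 52 were tested in the smn1 line (psmb12 was too low) and 0 had a limma p under 0.05 after adjustment over all 19660 genes tested; 0% of all genes did. By mean, 50 were lower and 2 higher, where 54.8% of all genes were lower. The groups did not overlap, with 3Tg lower, for 25 members, against 11.2% of all genes, and no member was higher without overlap, against 7.96%. At an unadjusted p under 0.05, 24 members were lower and 0 higher, against 6.44% of all genes lower and 5.87% higher. The median change of the members was −0.51 on the log2(TPM + 1) scale, 3Tg minus 2Tg, beside −0.05 for all genes tested, and it ranged from −1.06 to 0.69. After each library was centred on its median gene, 25 members were again lower without overlap (10.3% of all genes) and 0 higher (9.19%), with a median of −0.48.

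Only among the ATPases were all members lower without overlap in the smn1 line: 7 of 7, with changes between −0.71 and −0.51. psmc5, an ATPase of the ring that threads substrates into the core, stood at 193, 169 and 162 TPM in 2Tg and 133, 111 and 93.1 TPM in 3Tg, a change of -0.64 (SE 0.20, n = 3 per group, limma adjusted p = 0.351). Its highest 3Tg library lay clear of its lowest 2Tg library. Of the other roles, 4 of 9 alpha ring genes, 3 of 4 non-catalytic beta genes and 2 of 3 catalytic beta genes were lower without overlap. So were 2 of 4 base genes without ATPase, 4 of 9 lid genes and 3 of 6 assembly chaperones, but 0 of 6 activators and inhibitor. Of all genes, 11.2% were lower without overlap.

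Of the catalytic subunits, psmb6, which carries the caspase-like site, stood at 111, 99.6 and 93.2 TPM in 2Tg and 75.6, 75.7 and 66.9 TPM in 3Tg in the smn1 line, and the groups did not overlap. psmb7 stood at 321, 286 and 220.3 TPM in 2Tg and 199, 199 and 171 TPM in 3Tg, also without overlap. psmb5 (ENSDARG00000075445), the chymotrypsin-like subunit and the target of the drug bortezomib, stood at 187, 157 and 117 TPM in 2Tg and 145, 99.1 and 73.4 TPM in 3Tg. Here 3Tg replicate 1 lay above 2Tg replicate 3, so the groups overlapped. The changes were -0.47 for psmb6, -0.52 for psmb7 and -0.56 for psmb5, with SE of 0.18, 0.20 and 0.29 and limma adjusted p from 0.374 to 0.439.

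The smallest p among members in the smn1 line belonged to 2 chaperones of the base and 1 core gene. psmd10 (gankyrin, a chaperone of the base and an oncoprotein in human liver) stood at 21.8, 15.7 and 19.3 TPM in 2Tg and 9.52, 10.4 and 6.06 TPM in 3Tg, a change of -1.06 (SE 0.25, n = 3 per group, limma adjusted p = 0.288). psmd5, another base chaperone, stood at 28.9, 25.2 and 21.2 TPM in 2Tg and 13.7, 15.4 and 12.5 TPM in 3Tg, with a change of -0.81 (SE 0.20, n = 3 per group, limma adjusted p = 0.321). psma5, of the alpha ring, stood at 137, 117 and 119 TPM in 2Tg and 74.6, 81.9 and 72.99 TPM in 3Tg, with a change of -0.69 (SE 0.18, n = 3 per group, limma adjusted p = 0.330). In all 3 genes the 3Tg libraries were clear of the 2Tg libraries, and the psma5 libraries kept close together within each group.

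Among the most abundant members of the other roles, separation varied. psma8 stood at 259.9, 243 and 202 TPM in 2Tg and 229, 165 and 144 TPM in 3Tg, a change of -0.41, with 3Tg replicate 1 above 2Tg replicate 3. psmb1, a non-catalytic core subunit, stood at 310.3, 275 and 207 TPM in 2Tg and 214, 172 and 137 TPM in 3Tg, a change of -0.60, overlapping in the same pair of libraries. psmd1, a scaffold of the base, stood at 120.3, 111 and 66.98 TPM in 2Tg and 81.4, 50.2 and 61.1 TPM in 3Tg (-0.61, overlapping). The lid gene psmd6 separated, at 146, 128 and 119 TPM in 2Tg and 99.7, 89.6 and 87.6 TPM in 3Tg (-0.50). The assembly chaperone psmg3 was level, at 27.3, 26.2 and 34.9 TPM in 2Tg and 31.3, 21.8 and 35.7 TPM in 3Tg, with a change of -0.01 that turned to 0.01 after median centring. The activator psme3, which opens the core in the nucleus without ATP, stood at 34.5, 38.4 and 44.7 TPM in 2Tg and 40.9, 31.7 and 18.7 TPM in 3Tg (-0.42, overlapping).

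Leaving out libraries and splitting by file format left the direction of the smn1 median in place. Within the 3 libraries written with 6 decimals (2 of 2Tg, 1 of 3Tg) the median change was −0.44, beside 0.03 for all genes, and 49 of 52 members were lower. Within the 3 written with 6 significant digits (1 of 2Tg, 2 of 3Tg) it was −0.39, beside −0.13 for all genes, and 47 of 52 were lower. No test was made in either. With each library left out in turn the members' median lay between −0.59 and −0.43. Members lower without overlap then numbered 25 to 43, against 13.4% to 23.5% of all genes. The count was 43 without 2Tg replicate 3 (18.3%) and 39 without 3Tg replicate 1 (23.5%). Leaving out a library can only keep or raise such counts among the same genes. Other lists differed by mean beside the members in this line, where 54.8% of all genes were lower. Of 20 heat shock chaperones, 16 were lower by mean, with summed levels of 11001 to 16099 TPM in 2Tg and 6505 to 11611 in 3Tg and none at 0 in any library. Of 9 genes of the exocrine pancreas, 9 were higher by mean, at 771 to 10106 TPM in 2Tg and 1932 to 17944 in 3Tg. The sums of both lists overlapped between groups, while those of 2 tissue lists did not. Of 8 nervous system markers, 7 were higher by mean, at 871 to 1078 TPM in 2Tg and 1224 to 1339 in 3Tg, and of 8 eye markers 8 were, at 1239.7 to 1384 TPM in 2Tg and 1649.6 to 2899 in 3Tg. None was at 0 in any library. The part of these in the proteasome values was not tested.

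**Figure D2:**
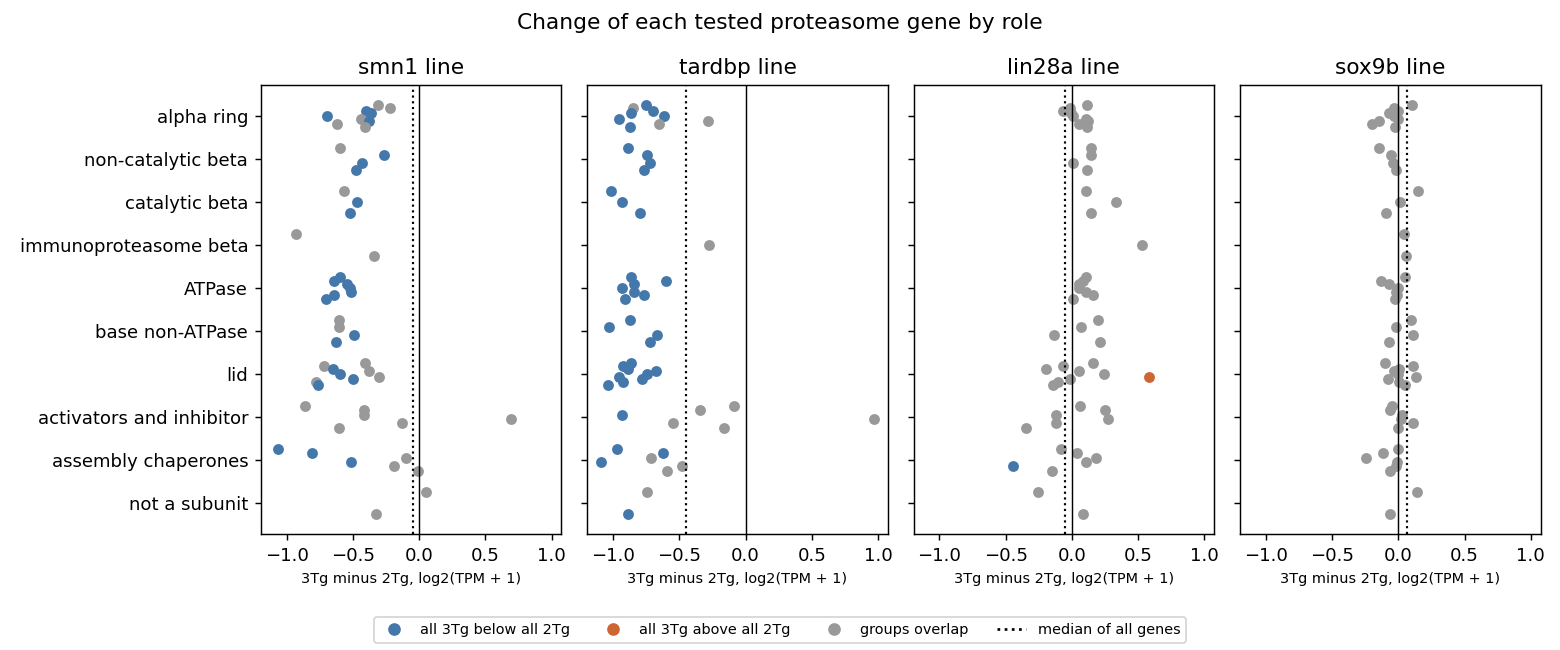
Change of each tested member, 3Tg mean minus 2Tg mean in log2(TPM + 1), by role and line; colour marks whether the 3 libraries of each group overlap, and the dotted line is the median of all genes tested. In the smn1 and tardbp lines nearly all points lie below 0, and psme4a is the point to the right among the activators.

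In the tardbp line, where tardbp and tardbpl encode the RNA-binding protein TDP-43 and its close relative, the members were lower by more, but so were most genes of the table. Of 51 members tested in the tardbp line (psmb9a and psmb12 were too low), 0 passed the limma test after adjustment, against 0.0103% of all 19336 genes. By mean 50 were lower, where 83% of all genes were. The groups did not overlap, with 3Tg lower, for 38 members, against 29.1% of all genes, and none was higher, against 0.176%. At an unadjusted p under 0.05, 22 were lower, against 12.9%, and 0 higher, against 0.89%. The median change was −0.78 beside −0.45 for all genes, and the range was −1.09 to 0.97.

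Since the median of all genes also lay below 0 in the tardbp line, the centred values are given as well. After median centring the members' median was −0.34 beside −0.01 for all genes, 45 were lower (51.2% of all genes) and 6 higher by mean, and 12 were lower without overlap (8.53% of all genes) and 2 higher (7.44%). Without 3Tg replicate 3, an alternative that leaves 3 libraries against 2, the median was −0.57 beside −0.16 as deposited and −0.44 after centring, with 38 members lower without overlap as deposited (29.8% of all genes) and 25 after centring (18.4%). The gap between the members' median and that of all genes was −0.33 with all libraries. It was −0.14 without 2Tg replicate 1, the library with the highest proteasome sum, and −0.44 without 2Tg replicate 2. The latter is the only library of this line written with 6 decimals. 2Tg replicate 1 also had the lowest sums of the series for eye (514 TPM) and exocrine pancreas markers (191 TPM). Its sums of red cell markers (10628 TPM) and proliferation genes (829 TPM) were the highest. The part of these in the gap was not tested. In 1 limma fit over all 24 libraries, which shares the spread between lines, 34 members were lower with an adjusted p under 0.05, against 14.7% of all genes in either direction, and 0 after median centring.

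As deposited, 29.1% of all genes were lower without overlap in the tardbp line. So were all 9 lid genes, all 7 ATPases, all 4 base genes without ATPase and all 4 non-catalytic beta genes. The 3 catalytic beta genes, 6 of 9 alpha ring genes, 3 of 6 assembly chaperones and 1 of 6 activators and inhibitor were too. Each of these counts by role was the same without 3Tg replicate 3. Leaving out a library cannot make separated groups overlap, so the counts could only stay or rise. After median centring fewer members were lower without overlap, as given above, against 8.53% of all genes. The counts by role are of the deposited values. psmd2, a base scaffold that binds ubiquitin shuttles, stood at 44.2, 37.2 and 37.4 TPM in 2Tg and 18.7, 23.9 and 14.9 TPM in 3Tg, a change of -1.03 (SE 0.39, n = 3 per group, limma adjusted p = 0.339). psmd8, of the lid, stood at 138, 108 and 116 TPM in 2Tg and 71.4, 64.1 and 42.5 TPM in 3Tg, with a change of -1.04 (SE 0.40, n = 3 per group, limma adjusted p = 0.339). psmg1, a chaperone of the alpha ring, stood at 54.1, 30.8 and 34.6 TPM in 2Tg and 25.5, 17.5 and 12.1 TPM in 3Tg, with a change of -1.09 (SE 0.42, n = 3 per group, limma adjusted p = 0.339). These had the smallest p among members in this line. After median centring their changes were -0.59, -0.60 and -0.65, and without 3Tg replicate 3 they were -0.87, -0.82 and -0.84.

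Of the catalytic subunits in the tardbp line, psmb5 stood at 185, 138 and 126 TPM in 2Tg and 84.7, 88.96 and 51.2 TPM in 3Tg, 49.9% of the 2Tg mean, or 57.8% without 3Tg replicate 3. psmb6 stood at 146, 95.00 and 103 TPM in 2Tg and 63.8, 68.2 and 45.9 TPM in 3Tg and psmb7 at 335, 216 and 227 TPM in 2Tg and 181, 182 and 93.9 TPM in 3Tg. In each of the 3 the 3Tg libraries lay below the 2Tg libraries. Their changes were -1.01, -0.93 and -0.80 as deposited and -0.57, -0.49 and -0.36 after centring. The SE of the deposited changes were 0.41, 0.40 and 0.43, and the limma adjusted p were 0.343, 0.350 and 0.384.

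**Figure D3:**
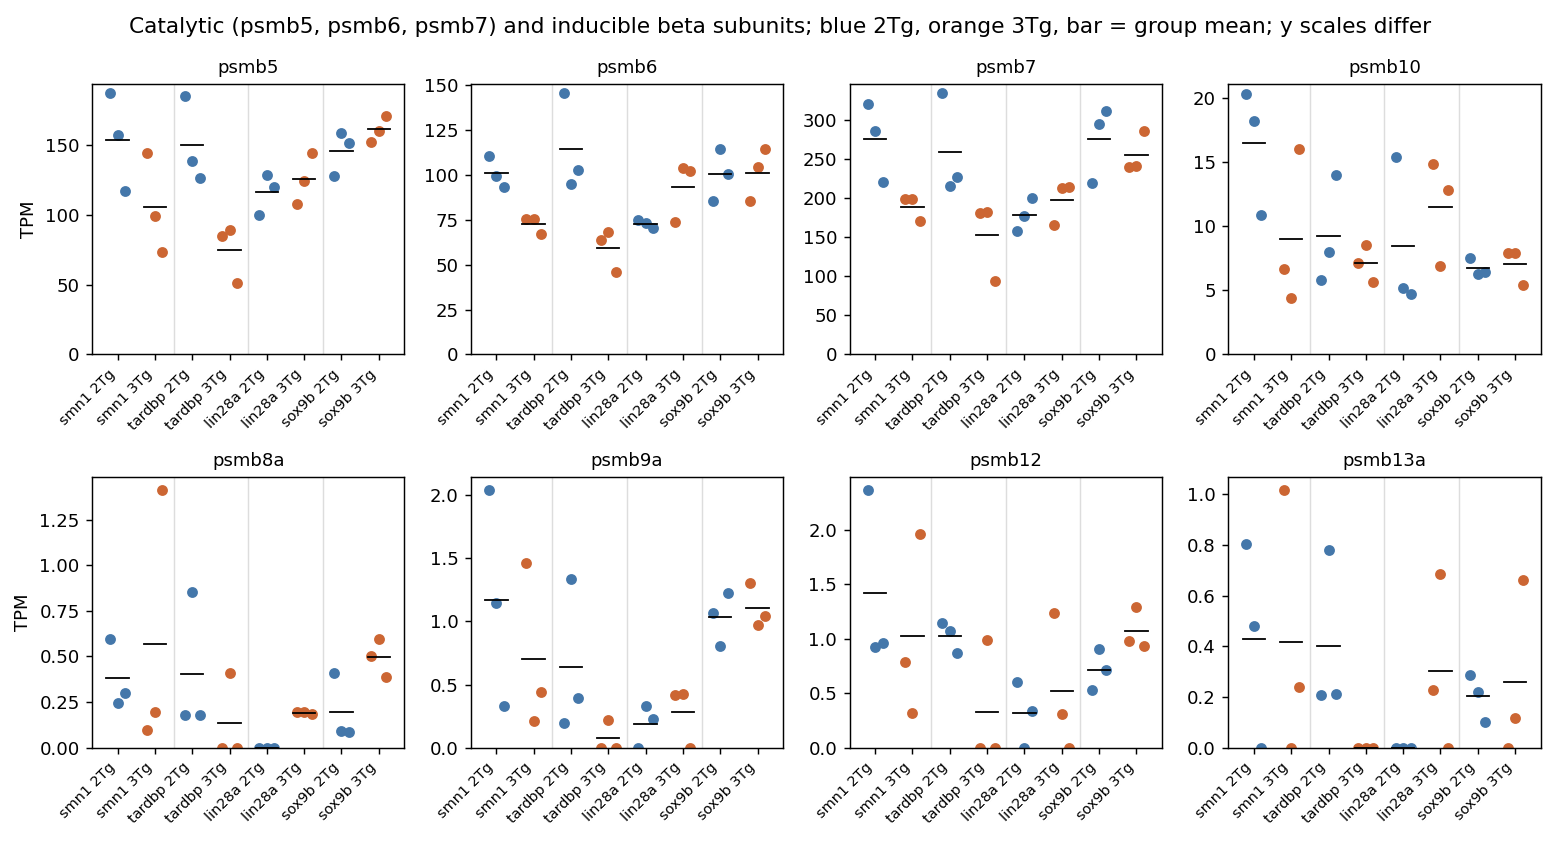
TPM of the constitutive catalytic genes psmb5, psmb6 and psmb7 and of 5 inducible beta genes in each library, each on its own scale, by line and group; points are libraries and bars are group means. psmb6 and psmb7 separate in the smn1 and tardbp lines, psmb5 in the tardbp line, psmb10 overlaps in each line, and the genes of the lower row reach at most 2.37 TPM.

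The most abundant genes of the remaining roles were lower by mean as well. psmc5 stood at 195, 144 and 136 TPM in 2Tg and 107, 103 and 69.4 TPM in 3Tg (-0.77, and -0.33 after centring). psmb1 stood at 292, 232 and 229 TPM in 2Tg and 158, 156 and 99.2 TPM in 3Tg (-0.88, and -0.44 after centring). psmd6 stood at 165, 112 and 113 TPM in 2Tg and 89.9, 86.5 and 52.4 TPM in 3Tg (-0.78, and -0.34 after centring). In these genes no 3Tg library reached a 2Tg library, and without 3Tg replicate 3 the changes were -0.57, -0.67 and -0.53. psma8 stood at 250.1, 226 and 182 TPM in 2Tg and 139.5, 153 and 77.02 TPM in 3Tg (-0.87), psmd1 at 97.3, 70.6 and 76.8 TPM in 2Tg and 42.3, 57.2 and 34.5 TPM in 3Tg (-0.87) and psme3 at 44.7, 49.01 and 41.9 TPM in 2Tg and 28.8, 24.4 and 17.7 TPM in 3Tg (-0.93), all without overlap. psmg3, at 36.6, 27.6 and 32.2 TPM in 2Tg and 36.5, 24.9 and 9.62 TPM in 3Tg, overlapped, and its change of -0.60 was -0.08 without 3Tg replicate 3.

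Genes of dividing cells were lower by mean beside the members in the tardbp line: 10 of 10 proliferation genes were (83% of all genes). Without overlap 9 were lower (29.1% of all genes), and 5 after median centring (8.53%). The 9 were also separated without 3Tg replicate 3 (29.8%), which could not lower the count. Summed levels of the 10 were 448 to 829 TPM in 2Tg and 169 to 348 in 3Tg, with none at 0. The 9 exocrine pancreas genes were all higher by mean, where 83% of all genes were lower. They summed to 191 to 2539 TPM in 2Tg and 739 to 22157 in 3Tg, with amy2a and ela2 listed at 0 in some libraries of the series. Without 3Tg replicate 3 the pancreas sums of 3Tg were 11329.9 and 22157 TPM. Skin markers, 6 of 7 lower by mean (83% of all genes), summed to 11094 to 12582 TPM in 2Tg and 4889 to 10225 in 3Tg. With 3Tg replicate 3 set aside, 3Tg sums of 9039 and 10225 TPM are left. Red cell markers, 7 of 7 lower by mean (83% of all genes), summed to 4229 to 10628 TPM in 2Tg and 2401 to 3709 in 3Tg, and neither list overlapped. The skin count is near the share of all genes, and the sums of both lists were not centred. The part of these lists in the proteasome values was not tested.

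Between the knockdown lines, which have no library in common, 24 members were lower without overlap in both, against 5.92% of the 19084 genes tested in both. The 24 are 96.0% of the 25 in the smn1 line and 63.2% of the 38 in the tardbp line. For all genes the shares were 52.3% of 2162 and 20.2% of 5593. The count stayed at 24 without tardbp 3Tg replicate 3, which could only keep or raise it, and the overlap itself was not tested. These counts are of the deposited values, where 83% of all genes were lower by mean in the tardbp line. After median centring fewer members were lower without overlap in that line, as given above, and the shared set was not counted. All 7 ATPases were among the 24, with 4 of 9 lid genes and 3 of 9 alpha ring genes. So were 3 of 4 non-catalytic and 2 of 3 catalytic beta genes, 2 of 4 base genes without ATPase and 3 of 6 assembly chaperones. No activator, immunoproteasome gene or gene outside the proteasome was among them. Of the genes given by library above, psmc5, psmd6, psmd8, psmb6, psmb7, psmd10, psmd5, psma5 and psmg1 were in the shared set. Not in it were psmb5, psmb1, psma8, psmd1, psmd2, psme3 and psmg3. psmd10, psmd5, psma5, psmd8, psmg1 and psmd2 were named for the smallest p in 1 of these lines, so their place here is no further support. For psmd10 the values in the tardbp line were 26.8, 17.1 and 18.8 TPM in 2Tg and 11.6, 10.3 and 8.25 TPM in 3Tg, a change of -0.97, close to that of -1.06 in the smn1 line.

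**Figure D4:**
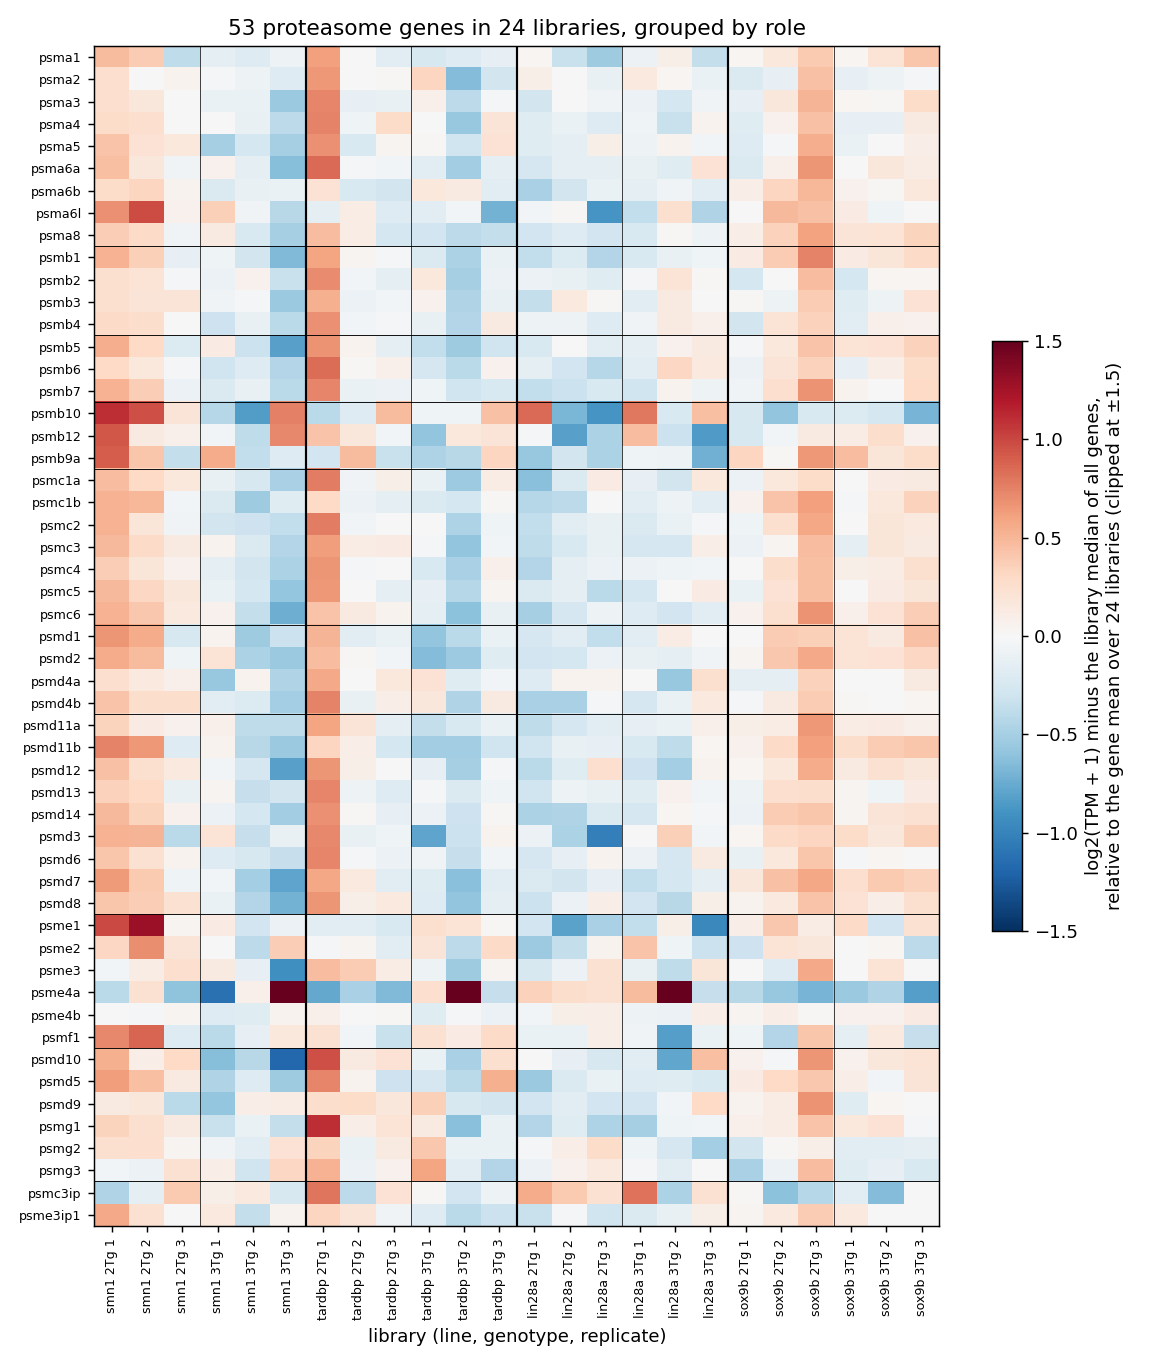
Level of each member in each library as log2(TPM + 1) minus the library's median over all genes, relative to that gene's mean over the 24 libraries, with genes in rows by role and libraries in columns by line and group. Most rows are high in smn1 2Tg replicates 1 and 2, tardbp 2Tg replicate 1 and sox9b 2Tg replicate 3 and low in smn1 3Tg replicate 3 and tardbp 3Tg replicate 2, where psme4a is high.

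In the lin28a line, in which an RNA-binding regulator of developmental timing was activated, the members differed little between groups. Of 51 tested in the lin28a line, 0 passed after adjustment (0% of all 19580 genes), 35 were higher and 16 lower by mean, where 57% of all genes were lower, and the median was 0.07 beside −0.05 for all genes. Without overlap, 1 member was higher, against 2.5% of all genes, and 1 lower, against 4.06%. After median centring 6 were higher (3.81%) and 1 lower (3.77%). At an unadjusted p under 0.05, 1 was higher (0.7% of all genes) and 0 lower (1.08%). The higher one was psmd3, a lid gene, at 83.3, 69.3 and 49.5 TPM in 2Tg and 88.4, 115 and 95.9 TPM in 3Tg, with a change of 0.58 (SE 0.24, n = 3 per group, limma adjusted p = 0.980). The lower one was psmg2, the partner of psmg1 in alpha ring assembly, at 21.9, 26.1 and 31.4 TPM in 2Tg and 21.2, 18.8 and 17.2 TPM in 3Tg, with a change of -0.44 (SE 0.22, n = 3 per group, limma adjusted p = 0.980); it was also the largest change opposite in sign to the members' median. psmb6, next by p, stood at 74.8, 73.4 and 70.4 TPM in 2Tg and 73.6, 104 and 102 TPM in 3Tg (0.33), with 1 3Tg library inside the 2Tg range. Leaving out 2Tg replicate 1 gave a median of −0.04 and leaving out 3Tg replicate 3 gave −0.01. When 3Tg replicate 1 was left out the count of members higher without overlap was 11 (12.3% of all genes) and the median 0.13. The median was 0.09 without 3Tg replicate 2, whose marker sums stand apart as given with psme4a.

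In the sox9b line, where a factor needed for cartilage was activated, the proteasome genes had the smallest differences of the series. Of 52 tested in the sox9b line, 0 passed after adjustment (0% of all 19619 genes), and none was separated between groups in either direction, against 1.15% of all genes lower and 3.6% higher. At an unadjusted p under 0.05 the counts were 0 lower (0.392%) and 0 higher (0.826%). By mean 33 were lower (33.1% of all genes) and 19 higher. After median centring 44 were lower (54.2%) and 8 higher, and 1 was lower without overlap (2.6% of all genes). The median was −0.02 beside 0.07 for all genes, and changes ranged from −0.25 to 0.15. The smallest p among members belonged to psmd9, a base chaperone, at 22.2, 25.2 and 29.8 TPM in 2Tg and 19.1, 23.2 and 22.1 TPM in 3Tg (-0.25, SE 0.15). psmb5 followed, at 128, 159 and 152 TPM in 2Tg and 153, 161 and 171 TPM in 3Tg (0.15, SE 0.12), and then psma6b, of the alpha ring, at 76.3, 97.1 and 86.5 TPM in 2Tg and 75.1, 76.3 and 81.99 TPM in 3Tg (-0.15, SE 0.12). psmb5 had the largest change opposite in sign to the members' median. In psmd9 and psma6b the 3Tg libraries lay in the lower part of the 2Tg range or below it, and in psmb5 in the upper part or above it. When 2Tg replicate 1 was left out the median was −0.13 and 17 members were lower without overlap (3.86% of all genes), and it was 0.03 on leaving out either 2Tg replicate 2 or 3Tg replicate 1.

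Of the immunoproteasome genes, most stood near or under 1 TPM in these embryos. psmb10 (ENSDARG00000043781), the inducible counterpart of psmb7, was the only one well above 1 TPM, at 4.38 to 20.3 TPM over the 24 libraries. Its smn1 line values were 20.3, 18.2 and 10.9 TPM in 2Tg and 6.68, 4.38 and 15.99 TPM in 3Tg, with 3Tg replicate 3 inside the 2Tg range, and its change was -0.93 (SE 0.43, n = 3 per group, limma adjusted p = 0.412). In the tardbp line it stood at 5.77, 8.02 and 13.98 TPM in 2Tg and 7.11, 8.56 and 5.66 TPM in 3Tg, and in the lin28a line at 15.4, 5.17 and 4.68 TPM in 2Tg and 14.8, 6.86 and 12.8 TPM in 3Tg. In the sox9b line it stood at 7.53, 6.30 and 6.42 TPM in 2Tg and 7.88, 7.90 and 5.44 TPM in 3Tg. The groups overlapped in each line, with 2Tg replicate 1 high in the lin28a line and 2Tg replicate 3 high in the tardbp line.

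psmb9a, the inducible counterpart of psmb6, reached at most 2.04 TPM, in smn1 2Tg replicate 1, and was listed at 0 in some libraries. Its values were 2.04, 1.15 and 0.327 TPM in 2Tg and 1.46, 0.211 and 0.439 TPM in 3Tg in the smn1 line, and in the sox9b line, the only other one where it was tested, at 1.06, 0.808 and 1.23 TPM in 2Tg and 1.31, 0.973 and 1.05 TPM in 3Tg, with changes of -0.34 and 0.05 and overlap in both. psmb12, a further inducible-type gene of fish, reached 2.37 TPM in the same library; in the sox9b line it stood at 0.531, 0.907 and 0.709 TPM in 2Tg and 0.977, 1.29 and 0.936 TPM in 3Tg. psmb8a, the inducible counterpart of psmb5, reached 1.41 TPM in smn1 3Tg replicate 3 and psmb13a 1.02 TPM in smn1 3Tg replicate 1, and psmb8a was listed at 0 in all 3 lin28a 2Tg libraries. The thymus-type genes psmb11a and psmb11b stayed at 0.179 and 0.185 TPM or less. In the RefSeq annotation of assembly GRCz12tu, used for gene order only, psmb13a, psmb8a, psmb12 and psmb9a follow one another with 0 protein-coding genes between neighbours, and psmb11a is next to psmb5.

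Together psmb10, psmb12 and psmb9a, the immunoproteasome genes among the members, amounted to 1.07 to 5.91 TPM for every 100 TPM of psmb5, psmb6 and psmb7. The lowest ratio was in tardbp 2Tg replicate 1 and the highest in smn1 3Tg replicate 3. The other smn1 3Tg libraries had 2.13 and 1.31, and the smn1 means were 3.52 in 2Tg and 3.12 in 3Tg. Leukocyte markers were present in every library at a summed 102 to 598 TPM, with cd8a and lck of T cells listed at 0 in some. In the list of MHC class I and interferon genes, 11 were tested in the smn1 line, and 9 were lower by mean (54.8% of all genes), 4 of them without overlap (11.2% of all genes) and none past the limma adjustment: tapbp.1 and tapbp.2, which load peptides onto MHC class I, tap1, which carries peptides into the endoplasmic reticulum, and ifih1, a sensor of viral RNA. tapbp.1 stood at 11.1, 10.2 and 5.90 TPM in 2Tg and 4.14, 1.78 and 4.23 TPM in 3Tg (-1.22). tap1 stood at 5.33, 3.88 and 3.79 TPM in 2Tg and 2.46, 1.97 and 1.80 TPM in 3Tg (-0.79). The sums of the list of 17 genes overlapped in the smn1 line, at 111 to 116 TPM in 2Tg and 71.2 to 155 in 3Tg. The sum in 3Tg replicate 3 was the highest of the series. In the tardbp line 5 of 10 tested were lower (83% of all genes), and in the lin28a line 1 of 10 (57% of all genes). In the lin28a line b2m, the light chain of MHC class I, stood at 6.05, 5.09 and 6.13 TPM in 2Tg and 8.60, 9.46 and 8.90 TPM in 3Tg (0.57).

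psme4a (ENSDARG00000087911), one of the zebrafish genes for an ATP-independent activator that in mammals caps proteasomes in sperm and at damaged chromatin, was high in single 3Tg libraries. Its 2Tg levels lay between 2.87 and 8.04 TPM in all 4 lines. In the 3Tg groups it stood at 2.51, 6.48 and 37.5 TPM in the smn1 line, 6.42, 36.7 and 1.86 TPM in the tardbp line and 8.36, 20.5 and 4.89 TPM in the lin28a line, each time with 1 library above all others. In the sox9b line it stood at 4.16, 4.76 and 3.33 TPM in 3Tg, inside or near the 2Tg range of 2.99 to 4.61 TPM.

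The changes of psme4a, 0.69 in the smn1 line (SE 0.75), 0.97 in the tardbp line (SE 0.65) and 0.27 in the lin28a line (SE 0.43), were, in the knockdown lines, the largest opposite in sign to the members' median, and with limma adjusted p from 0.447 to 0.980 none passed. They rest on single libraries: the change was −0.28 when smn1 3Tg replicate 3 was left out, −0.04 when tardbp 3Tg replicate 2 was and −0.24 when lin28a 3Tg replicate 2 was. The same libraries were low in proliferation genes, at a summed 211, 179.7 and 210.2 TPM in the order just given, where tardbp 3Tg replicate 3 had 169 and the other 20 libraries 301 or more. Leukocyte markers summed to 511 and 598 TPM in the smn1 and lin28a ones, but to 215 TPM in the tardbp one. In the 21 libraries with low psme4a they summed to 102 to 306 TPM. The lin28a one also had nervous system markers at 533 TPM and eye markers at 1529.9, against 1128 to 1291 and 3281 to 3777 in the other lin28a libraries, and intestine markers at 681 against 1499 to 3781. The part of these in the psme4a values was not tested. The copy psme4b stood at 8.10 to 22.1 TPM over the 24 libraries. In deviations from group means over the 24 libraries, the median Pearson correlation between pairs of members was 0.50 and 86.2% of pairs were above 0. All genes of a library share its depth and fixed TPM total, and tardbp 3Tg replicate 3 was included. No values for pairs of all genes stand beside these, so they are not read as particular to the members. For psme4a the median with the other members was −0.34, the lowest of all, and for psmb10 −0.16.

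Among all genes, fbxo32 and trim63a, muscle ubiquitin ligases known in mammals from wasting muscle, were among the most like psme4a in level over the 24 libraries. They ranked 1 and 3 by correlation and were chosen after their values were seen. The ranking took in the 3 libraries with high psme4a, so genes high there rank high by it. The highest libraries of fbxo32 were tardbp 3Tg replicate 2 at 113 TPM, smn1 3Tg replicate 3 at 98.2 TPM and lin28a 3Tg replicate 2 at 45.2 TPM, and the other 21 stayed at 23.9 TPM or less. For trim63a the same libraries stood at 257, 219 and 157 TPM, and the other 21 at 98.9 TPM or less. Of the other genes among the 12 most alike, dusp27, si:dkey-23o4.6, pdpk1a, retreg1, cyp24a1 and pno1 were highest in the same libraries. In klhl38b, ranked 2, and in ghrb, cuzd1.1 and rsl1d1, lin28a 3Tg replicate 2 lay below another library. For klhl38b it stood at 12.6 TPM, and the other 21 reached 15.1 TPM.

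**Figure D5:**
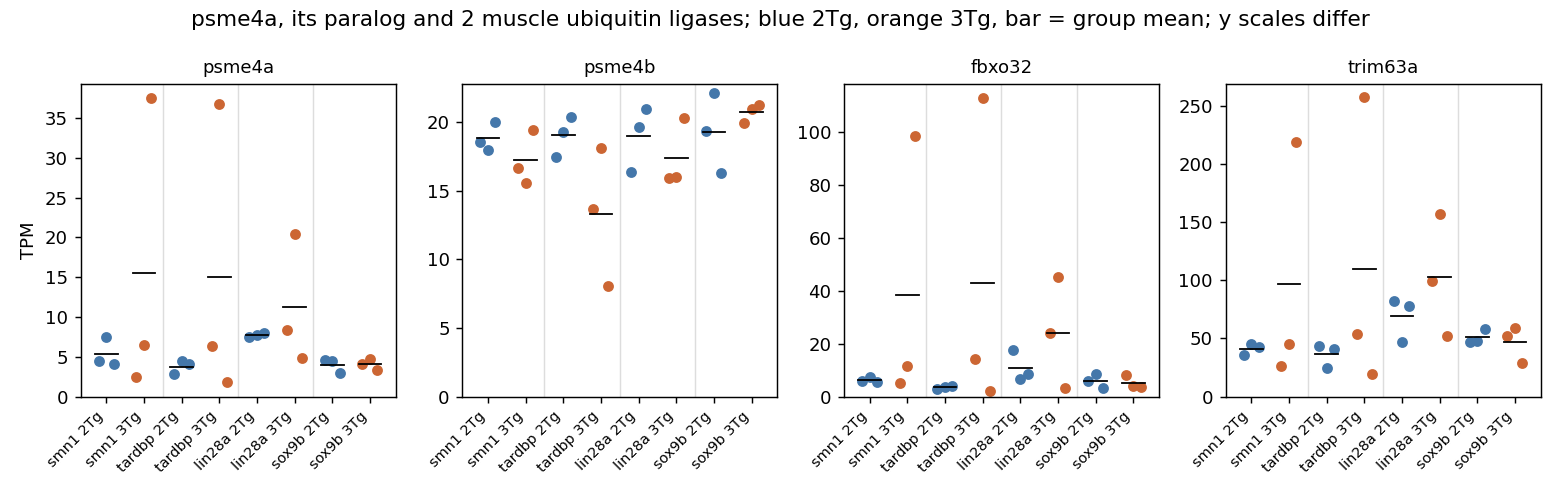
TPM of the activator genes psme4a and psme4b and of the muscle ubiquitin ligases fbxo32 and trim63a in each library, each on its own scale, by line and group; points are libraries and bars are group means. psme4a exceeds 20 TPM in 1 3Tg library each of the smn1, tardbp and lin28a lines and stays at 8.36 TPM or less in the other 21 libraries, and fbxo32 and trim63a are highest in the same 3.

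The difference between lines was tested in 1 limma fit over all 24 libraries for the 6 pairs of lines. No member passed after adjustment in any pair (0% of 21099 genes in each). At an unadjusted p under 0.05, 37 of 53 members differed between the tardbp and lin28a lines (19.2% of all genes) and 33 between tardbp and sox9b (20.8%), but after median centring 13 (13.1%) and 1 (6.42%) did. For smn1 against lin28a the counts were 16 (7.41%) and, after centring, 28 (12.5%). For smn1 against sox9b they were 8 (3.37%) and 4 (4.82%), for smn1 against tardbp 0 (10.6%) and 3 (5.38%), and for lin28a against sox9b 0 in both fits (0.991% and 1.55%). A p above the threshold does not show that the lines were alike. Of the single genes, psmd3 had the smallest p, with a change lower by 1.54 on the log2 scale in the tardbp than in the lin28a line (SE 0.38, limma adjusted p = 0.125).

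The levels of the 2Tg embryos were also compared across lines. All 3 lin28a libraries have values with 6 significant digits and all 3 sox9b libraries 6 decimals, so line and number format cannot be told apart there. In an F test in limma over the 12 2Tg libraries 0 of 53 members passed after adjustment, against 0.25% of 20425 genes, and 24 had an unadjusted p under 0.05, against 19.9%. The smallest adjusted p was 0.103, for psme1, an interferon-inducible activator in mammals, whose 2Tg means were 33.4 TPM in the smn1 line, 15.7 in tardbp, 11.99 in lin28a and 20.9 in sox9b. For psmb1 they were 264, 251, 169 and 290 TPM (adjusted p = 0.129). The summed proteasome TPM of the smn1 3Tg libraries, 2826 to 3666, covered much the same range as those of the lin28a 2Tg libraries, 2849.7 to 3551.

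Most genes that work with the proteasome were lower by mean in the knockdown lines, as were most genes of any name. None of the 28 tested passed. Of these, 23 were lower in the smn1 line (54.8% of all genes) and 5 higher, 8 lower without overlap (11.2% of all genes), with a median of −0.40. In the tardbp line 25 were lower (83% of all genes) and 3 higher, and 11 were lower without overlap (29.1% of all genes). The median there was −0.58, which was −0.14 after centring and −0.30 without 3Tg replicate 3. In the lin28a line 14 were higher and 14 lower (57% of all genes), and in the sox9b line 16 higher and 12 lower (33.1%). usp14, a deubiquitinase that sits on the cap, stood at 49.9, 44.4 and 40.4 TPM in 2Tg and 40.2, 29.7 and 24.7 TPM in 3Tg in the smn1 line (-0.52) and at 46.7, 45.99 and 37.3 TPM in 2Tg and 27.02, 28.1 and 15.7 TPM in 3Tg in the tardbp line (-0.89, and -0.63 without 3Tg replicate 3), without overlap in either. akirin2, needed in mammals to bring proteasomes into the nucleus, stood at 51.8, 79.8 and 39.95 TPM in 2Tg and 22.6, 24.8 and 21.5 TPM in 3Tg in the tardbp line (-1.22, and -1.18 without 3Tg replicate 3), the largest of the list there. pomp, the chaperone that matures the core, stood at 162, 175 and 232 TPM in 2Tg and 139, 156 and 116 TPM in 3Tg in the smn1 line (-0.46, without overlap). nfe2l1b, a zebrafish counterpart of Nrf1, was lower without overlap in the tardbp line, at 9.81, 11.02 and 10.97 TPM in 2Tg and 5.34, 8.23 and 4.49 TPM in 3Tg (-0.76, and -0.60 without 3Tg replicate 3), and nfe2l1a overlapped, at 6.51, 6.65 and 3.88 TPM in 2Tg and 13.5, 22.05 and 2.17 TPM in 3Tg (0.64).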

How the data were processed

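Whole embryo RNA of 8 groups with 3 libraries each was sequenced after extraction with TRIzol or RNAiso Plus, per the labels' protocols, which do not say which library had which. The authors deposited TPM per gene in 1 table per line. The submitters' processing notes list Trimmomatic 0.39, STAR 2.7.10b and Salmon 1.10.1 and, as builds, GRCz11 with danRer11, with no role or order. No counts were used, so depth, and with it counting error, is unknown.

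Each line was analysed alone, without scaling, as log2(TPM + 1); a fold on this scale understates that of low genes. Genes at 1 TPM or more in 3 of 6 libraries were tested with limma 3.58.1 in R 4.3.3 (trended variance prior, two-sided), adjusted by Benjamini-Hochberg over all genes tested, threshold 0.05. The test was tried on simulated data. Groups overlap unless all 3 values of one exceed all 3 of the other. Leaving out a library cannot make separated groups overlap, so counts without overlap can then only stay or rise among the same genes. Values in every library are given for the catalytic and inducible beta genes, the most abundant member of each role, the 3 members of smallest p in each line and the largest change opposite in sign to the members' median; partner genes were chosen after their values were seen. The members and lists were chosen with earlier results of these data known. Alternatives were another pseudocount or filter, median centring, rescaled totals, a replicate block, 1 fit over 24 libraries and leaving out each library. Centring in the fit over 24 libraries, the split by number format and counts without tardbp 3Tg replicate 3 were added after seeing the data. Of the identifiers of the 57 genes with a proteasome symbol, before the filter on TPM, 45 carry the same symbol in the reference list of gene names. No column of sample values was left unused. Sequences are not analysed here.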

Additional observations from a re-analysis of the deposited data

Results flagged for a closer look

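The change of the lid gene psmd3 differed between the tardbp and lin28a lines by −1.54 on the log2(TPM + 1) scale (tardbp minus lin28a, SE 0.38, adjusted p = 0.125 from limma across all genes). It was singled out because all 3 libraries of 3Tg lay below those of 2Tg in the tardbp line and above them in the lin28a line. In the tardbp line it stood at 144, 93.1 and 100.4 TPM in 2Tg and 47.1, 77.3 and 49.2 TPM in 3Tg, and in the lin28a line at 83.3, 69.3 and 49.5 TPM in 2Tg and 88.4, 115 and 95.9 TPM in 3Tg. The difference was −1.17 after median centring (adjusted p = 0.335) and −1.44 without tardbp 3Tg replicate 3 (adjusted p = 0.126). Its difference was not past the threshold in any of the 3 fits.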

How the results depend on the processing

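The number of proteasome genes past the threshold was 0 in each line and stayed at 0 under every alternative run, with the exception of 34 in the tardbp line in 1 fit over 24 libraries. Their median change in the tardbp line, −0.78, was −0.34 with median centring, −0.48 with rescaled totals and −0.35 with centring in the fit over 24 libraries. It was −0.44 with centring and without 3Tg replicate 3, and with single libraries left out it lay between −0.92 and −0.57. In the smn1 line the median of −0.51 lay between −0.59 and −0.41 under all alternatives, the lowest size with number format as a covariate. The medians of the lin28a and sox9b lines crossed 0 when single libraries were left out, from −0.04 to 0.13 and from −0.13 to 0.03. Of all genes, 2 passed in the tardbp line; 0 did with a pseudocount of 0.1, no filter, median centring, rescaled totals or centring in the fit over 24 libraries, 3108 in that fit without centring, 50 with centring and without 3Tg replicate 3, and 0 to 166 with single libraries left out. In the smn1 line 0 passed, against 1 with centring in the fit over 24 libraries and 0 to 2 with single libraries left out. With the replicate number as a block, 28 genes passed in the tardbp line, 0 of them members; deviations of libraries with the same number correlated between −0.34 and 0.38, so the numbers were not taken to pair the libraries. The causes were not tested. Without counts, the depth behind low genes such as psmb9a and psmb12 is unknown.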

Other observations

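The ubiquitin gene ubb went with the number format of the values: it stood at 17.0 to 39.5 TPM in the 10 libraries written with 6 decimals and at 114 to 691 TPM in the 14 written with 6 significant digits, with no overlap. In the smn1 line, where both formats occur, it stood at 23.7, 26.7 and 304 TPM in 2Tg and 39.5, 224 and 359 TPM in 3Tg, so its change of 1.32 there cannot be told apart from the format. Summed proteasome TPM overlapped between formats, at 3666 to 5045 and 1768 to 5272, with medians of 4439 TPM for 6 decimals and 3231 TPM for 6 significant digits; 2 of 3 smn1 2Tg libraries and 1 of 3 smn1 3Tg libraries have 6 decimals.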
